A study of Mus musculus with 6 samples.

Results

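St18, Lhx8, Isl1, Gbx1, Gbx2, Zic1, Zic4, Etv1 and Tle4 were grouped as transcription factor and corepressor genes of pallidal and basal forebrain projection neurons. They were taken by symbol from a table of 34745 genes, where each of the 9 symbols matched 1 identifier, and all 9 were among the 14929 genes that passed the filter on low counts. Expression was measured by RNA-seq in the medial ganglionic eminence (MGE) of mouse embryos at embryonic day 12.5, in 3 libraries of Sp9-/- embryos and 3 of wild type littermates. Both genotypes share a mixed descent from CD1, 129S6 and C57BL/6J mice. Sp9 encodes a zinc finger transcription factor of the ventral forebrain, and the labels do not describe how its null allele was made. They also do not say whether each library came from a separate embryo, so the p-values below measure the spread between these libraries, which may be partly technical.

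The MGE is best known as the source of cortical interneurons, but neurons of the globus pallidus and the cholinergic neurons of the basal forebrain arise from it as well, mainly from its ventral end and the adjoining preoptic area. St18 is a zinc finger factor of the Myt1 family that directs MGE cells to the pallidal projection fate. Lhx8 and Isl1 are LIM homeodomain factors of cholinergic neurons and act with the adaptor Ldb1. Gbx1 and Gbx2 are homeodomain paralogues, Zic1 and Zic4 are zinc finger paralogues of the septum and ventral telencephalon, Etv1 is an ETS factor of the ventral MGE, and Tle4 is a Groucho corepressor that does not bind DNA itself.

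Library totals ran from 6826447 to 10979280 counts in the null and from 9536050 to 10914147 in the wild type libraries. Sp9 itself was at 13.0, 10.6 and 12.5 CPM (counts scaled to a library total of 1000000) in null replicates 1, 2 and 3, against 203, 247 and 189 CPM in wild type replicates 1, 2 and 3, so its level matched the labels in all 6. The 6 MGE markers together were at 4101 to 4328 CPM in null and 3277 to 3553 CPM in wild type libraries. Replicate 2 of both genotypes stood apart from the other libraries. The 7 pallial markers summed to 1.28 CPM in null replicate 2 and to 26.2 and 47.7 CPM in null replicates 1 and 3, against 1.65 CPM in wild type replicate 2 and 17.1 and 23.2 CPM in wild type replicates 1 and 3. The 7 hypothalamic and preoptic markers were at 7.56 CPM in null replicate 2 and 15.2 and 16.9 CPM in null replicates 1 and 3, against 5.59 CPM in wild type replicate 2 and 9.23 and 10.6 CPM in wild type replicates 1 and 3. In replicates 1 and 3 most of the pallial sum was Tbr1, at 23.3, 0.0911 and 41.9 CPM in null replicates 1, 2 and 3. In wild type replicates 1, 2 and 3 Tbr1 was at 14.8, 0.641 and 20.2 CPM. Replicate 2 was lowest in both genotypes for 4 of the 7 pallial and 3 of the 7 hypothalamic and preoptic markers. Neurod6, Nkx2-4 and Rax of those lists had at most 3 counts in any library. The lateral ganglionic eminence markers were at 636 to 687 CPM in null and 583 to 599.9 CPM in wild type libraries, and the septal markers, with Fgf8 at no more than 3 counts in any library, at 45.4 to 57.0 CPM in null and 46.6 to 57.4 CPM in wild type libraries. The 7 microglial markers moved with genotype and not with the replicate number, at 7.74 to 12.6 CPM in null and 29.4 to 33.7 CPM in wild type libraries. The MGE and lateral ganglionic eminence sums also did not overlap between the genotypes and were higher in the null libraries. Lhx6, 1 of the 6 MGE markers, went the other way, with a mean of 375 CPM in null and 521 CPM in wild type libraries.

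St18 fell in the null libraries and was the only one of the 9 genes whose null and wild type values did not overlap. It had 340, 424 and 548 counts in null replicates 1, 2 and 3, against 1376, 1472 and 1193 counts in wild type replicates 1, 2 and 3. Scaled to depth this is 49.8, 38.6 and 58.1 CPM in the null libraries and 144, 135 and 120.3 CPM in the wild type libraries. Each null value was thus below each wild type value. The mean was 48.8 ± 9.78 CPM in null and 133 ± 12.1 CPM in wild type libraries (SD, n = 3 each), 2.73-fold higher in wild type. The log2 fold change of Sp9 null over wild type was -1.43 (SE 0.15, edgeR quasi-likelihood test, Benjamini-Hochberg adjusted p = 0.0111). In this fit, with genotype as its only term, 0.147% of all tested genes were called at an adjusted p under 0.05, 0.0469% being higher and 0.10% lower, and St18 was 1 of the 9 members called. All 3 null values lay under the lowest wild type value for 1 of the 9 members and for 8.06% of all tested genes, and for 13.0% of those genes the 3 null values lay all under or all above the wild type range. In bulk tissue, fewer St18-expressing cells and less St18 RNA per cell cannot be told apart. The gene lies on chromosome 1 (6487231 to 6860940 on GRCm38, plus strand) and no other gene of the table overlaps it.

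The fall of St18 was present within each replicate number. The log2 ratio of null over wild type CPM was -1.53, -1.80 and -1.05 for numbers 1, 2 and 3. With the replicate number added as a block, a term that compares libraries of the same number, the log2 fold change was -1.43 (SE 0.15, adjusted p = 0.00659 by edgeR), and without replicate 2 of both genotypes it was -1.27 (SE 0.11, adjusted p = 0.000244 by edgeR). The call was lost without null replicate 1 and without wild type replicate 1, 2 or 3, at edgeR adjusted p from 0.0592 to 0.116 and log2 fold changes from -1.50 to -1.37. With the block it was lost without both libraries of number 1 (log2 fold change -1.39, adjusted p = 0.201 by edgeR). The microglial markers were also lower in the null libraries. The share of counts from mitochondrial genes was higher there, at 2.32, 3.43 and 3.41% in null replicates 1, 2 and 3, against 2.2 to 2.28% in wild type libraries. The part of either in the St18 result was not tested.

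**Figure D1:**
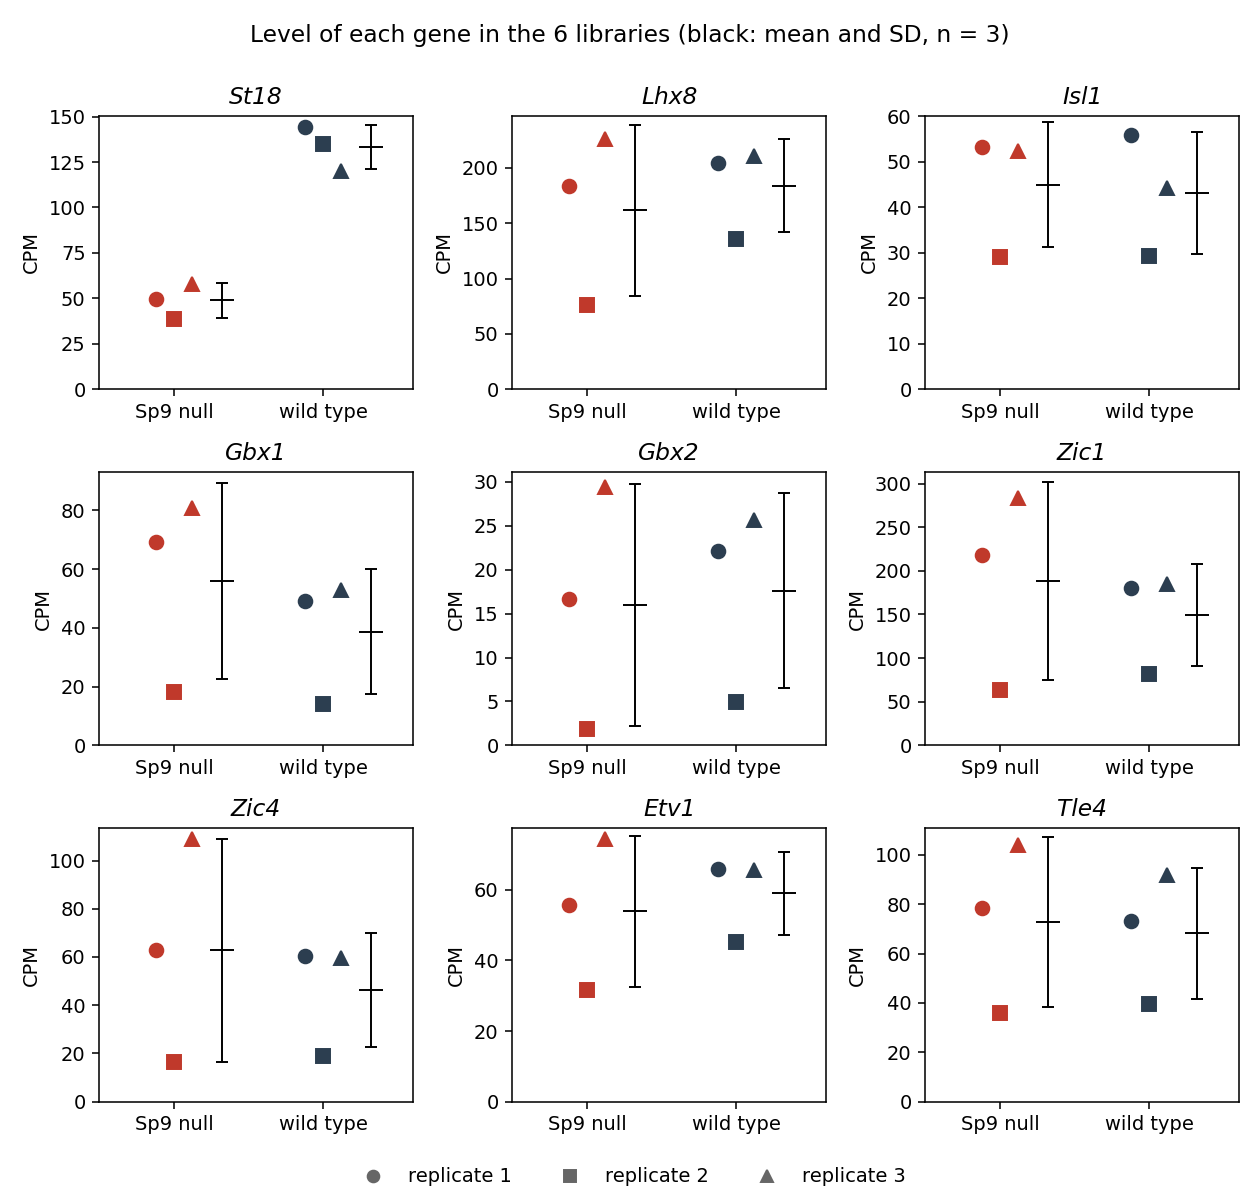
CPM of each of the 9 genes in the 3 Sp9 null (red, left) and 3 wild type (dark, right) libraries, with the replicate number as the point's shape and the mean ± SD (n = 3) in black. St18 is the gene whose groups stay apart, at 38.6 to 58.1 CPM in null and 120.3 to 144 CPM in wild type libraries, while in the other 8 panels replicate 2, drawn as a square, is the lowest point of each genotype.

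The other 8 genes varied far more between libraries of 1 genotype than between the genotypes, and all of them were lowest in replicate 2 of both. Replicate 2 was the lowest library of both genotypes for 28.4% of all tested genes. It lay more than 1.5-fold under the mean of replicates 1 and 3 in both genotypes for 7 of the 9 members, and for 8.23% of all tested genes. The exceptions were St18 and Etv1. Over the 6 libraries the log2(CPM + 1) values of the other 8 genes correlated with each other by Pearson's r of 0.81 to 0.99 (28 pairs, median 0.93), and with St18 by -0.11 to 0.45 (8 pairs). Each pair of genes shares the same 6 libraries and the same genotype difference, so these values are a description. Genes outside the 9 differed in this respect. Nkx2-1, which specifies the MGE, had in replicate 2 a level of 1.03 times the mean of replicates 1 and 3 in null and 1.15 times in wild type libraries. For Lhx6, which acts in MGE neurons after their last division, it was 0.854 and 0.89 times in null and wild type. Foxp2, a marker of a class of pallidal neurons, was at 0.203 and 0.269 times in null and wild type, and Myt1l, a neuronal paralogue of St18, at 0.244 and 0.347 times. The pallial, hypothalamic and thalamic marker sums were also lowest in replicate 2 of both genotypes. The 6 thalamic markers were at 31.6 CPM against 41.2 and 57.2 CPM in null libraries. In wild type libraries they were at 30.3 CPM against 35.0 and 41.2 CPM. Replicate 2 was the lowest library of both genotypes for 3 of these 6 markers. The part of the 3 marker sums in the levels of the genes above was not tested.

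**Figure D2:**
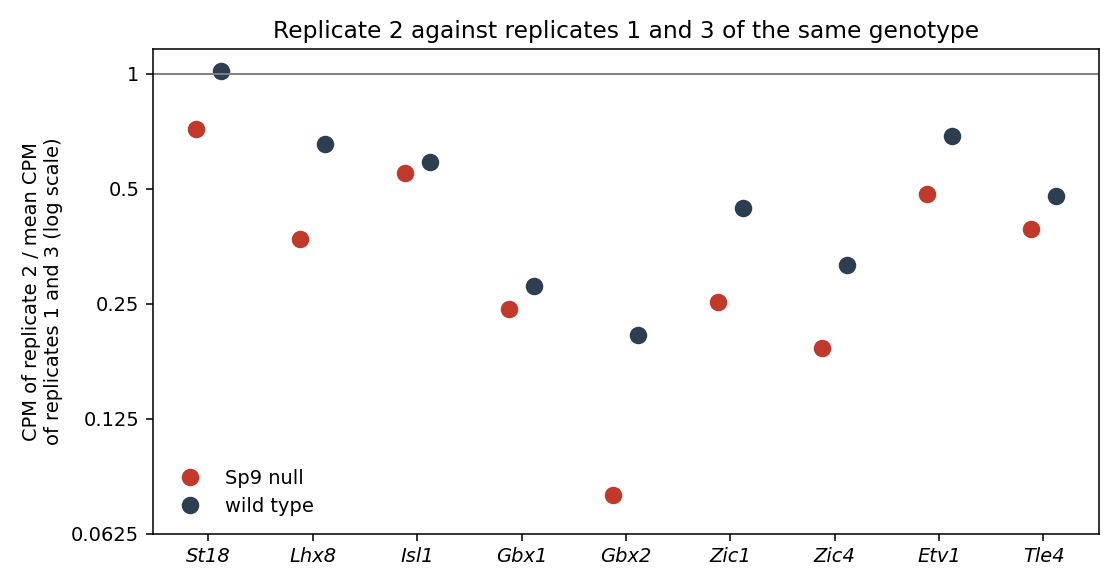
CPM of replicate 2 divided by the mean CPM of replicates 1 and 3 of the same genotype, on a log2 axis, for each gene in Sp9 null (red, left of each pair) and wild type (dark) libraries. St18 lies at 0.716 in null and 1.02 in wild type, and Gbx2 lies lowest, at 0.0791 in null and 0.207 in wild type.

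Among the LIM homeodomain genes, Lhx8 had the highest level per length of the 9 genes in both genotypes. It lies on chromosome 3 (154306294 to 154330659, minus strand) and Isl1 on chromosome 13 (116298281 to 116309689, minus strand). Lhx8 was at 184, 75.9 and 226 CPM in null replicates 1, 2 and 3, against 205, 136 and 211 CPM in wild type replicates 1, 2 and 3. The groups overlapped, and null replicate 2 was the lowest library. The log2 fold change was -0.17 (SE 0.42, adjusted p = 0.992 by edgeR), and -0.26 (SE 0.26, adjusted p = 0.729 by edgeR) with the block. Within numbers 1, 2 and 3 the log2 ratio of null over wild type was -0.16, -0.84 and 0.10 and the one large difference lay in number 2. Without replicate 2 of both genotypes the log2 fold change was -0.0026 (SE 0.10). Isl1, which is also a factor of striatal neurons, was at 53.3, 29.1 and 52.4 CPM in null replicates 1, 2 and 3 and 55.9, 29.3 and 44.2 CPM in wild type replicates 1, 2 and 3. Its values nearly coincided within the first and the second number. Its log2 fold change was 0.07 (SE 0.31, adjusted p = 0.997 by edgeR), and 0.08 (SE 0.09) with the block, where it also did not pass (adjusted p = 0.708 by edgeR).

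St18 relative to Lhx8 separated the genotypes in every library. The ratio of their FPKM values (fragments scaled to gene length and library total) was 0.081, 0.152 and 0.0768 in null replicates 1, 2 and 3, against 0.21, 0.296 and 0.17 in wild type replicates 1, 2 and 3. The highest null ratio lay below the lowest wild type ratio. This pair was picked after the values were seen and the ratio is given with no test.

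Gbx1 rose in the null libraries when libraries of the same number were compared. It lies on chromosome 5 (24502757 to 24527202, minus strand). Gbx1 was at 69.1, 18.2 and 80.9 CPM in null replicates 1, 2 and 3, against 49.1, 14.2 and 52.9 CPM in wild type replicates 1, 2 and 3. The groups overlapped, with both libraries numbered 2 low, and the null library was the higher one within each number, by log2 ratios of 0.49, 0.36 and 0.61. With genotype as the only term the log2 fold change was 0.55 (SE 0.71, adjusted p = 0.957 by edgeR). With the block it was 0.53 (SE 0.09, adjusted p = 0.000145 by edgeR). In that fit 4.0% of all tested genes were called, 2.22% being higher and 1.78% lower, and 2 of the 9 members, Gbx1 higher and St18 lower. Without replicate 2 of both genotypes and with no block Gbx1 was also called (log2 fold change 0.58, SE 0.10, adjusted p = 0.0297 by edgeR), beside 0.591% of all tested genes, 0.252% being higher. DESeq2 with the block called it at adjusted p = 0.0119, beside 1.09% of all tested genes, 0.643% being higher. The blocked call was lost without both libraries of number 3 (log2 fold change 0.45, adjusted p = 0.0775 by edgeR). The hypothalamic and preoptic marker sum was also higher in the null library within each number (15.2, 7.56 and 16.9 CPM in null and 9.23, 5.59 and 10.6 CPM in wild type libraries), with 0 of its 7 genes called with the block. So were the MGE (4144, 4328 and 4101 CPM in null, 3445, 3553 and 3277 CPM in wild type), lateral ganglionic eminence, thalamic and meningeal sums. With the block 3 of 6 MGE markers were called higher and 1 lower, and 2 of 8 lateral ganglionic eminence markers were called higher. The microglial sum was lower within each number, and the other sums differed in direction between numbers. Of the 7 pallial markers 1, Tbr1, was called higher with the block (log2 fold change 0.81, SE 0.19, adjusted p = 0.0238 by edgeR), at 23.3, 0.0911 and 41.9 CPM in null and 14.8, 0.641 and 20.2 CPM in wild type libraries 1, 2 and 3. The part of these markers in the Gbx1 result was not tested.

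Its paralogue Gbx2 did not pass in either fit. It was at 16.7, 1.82 and 29.4 CPM in null replicates 1, 2 and 3, against 22.1, 4.95 and 25.7 CPM in wild type replicates 1, 2 and 3. It had the widest spread of the 9 genes, 16.1-fold between the highest and lowest null library and 5.2-fold between those of the wild type, and 20 counts in null replicate 2. The log2 fold change was -0.13 (SE 1.0, adjusted p = 0.997 by edgeR), and -0.26 (SE 0.21, adjusted p = 0.589 by edgeR) with the block. Gbx1 over Gbx2, as a ratio of FPKM values, was 4.0, 9.65 and 2.66 in null replicates 1, 2 and 3, against 2.14, 2.77 and 1.99 in wild type replicates 1, 2 and 3. It was higher in the null library within each number, although the groups overlapped. The difference between the responses of Gbx1 and Gbx2 was not tested. Gbx2 (chromosome 1, 89927956 to 89931179, minus strand) shares 946 bases with the antisense transcript D130058E05Rik, which had 64, 16 and 130 counts in null replicates 1, 2 and 3 and 111, 30 and 174 counts in wild type replicates 1, 2 and 3. The strandedness of the libraries is not stated, so counts from this overlap could belong to either gene.

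**Figure D3:**
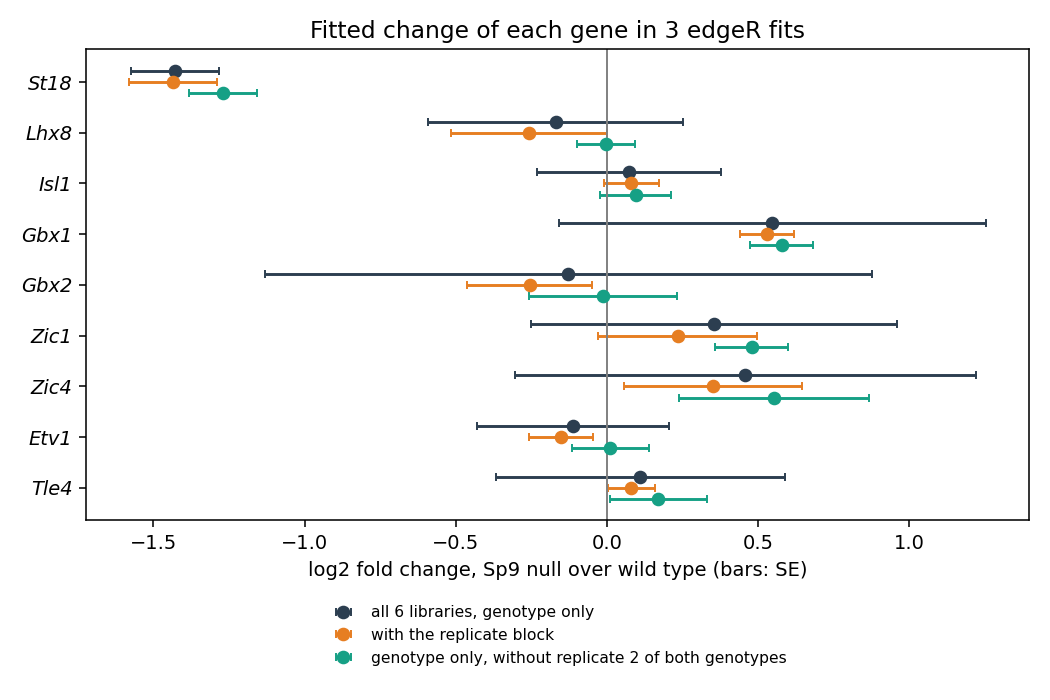
Log2 fold change of Sp9 null over wild type for each gene, with its SE as a bar, in the edgeR fit with genotype only, with the replicate block, and with genotype only after leaving out replicate 2 of both genotypes. St18 lies at -1.43, -1.43 and -1.27 in the 3 fits and Gbx1 at 0.55, 0.53 and 0.58, with an SE of 0.71 in the first and 0.09 in the second.

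Zic1 and Zic4 lie next to each other on chromosome 9, Zic1 on the minus strand (91358058 to 91365810) and Zic4 on the plus strand (91362413 to 91389348). The 2 annotated genes share 3398 bases, and Zic4 shares 884 bases with Gm37477 on the minus strand. As for Gbx2, counts from these overlaps could belong to either gene, which limits the ratio of Zic1 to Zic4 and their shared pattern. Zic1 was at 218, 63.4 and 284 CPM in null replicates 1, 2 and 3, against 181, 81.5 and 185 CPM in wild type replicates 1, 2 and 3. Zic4 was at 62.8, 16.5 and 109 CPM in the null and at 60.4, 18.9 and 59.4 CPM in the wild type libraries. Null replicate 3 was the highest library and null replicate 2 the lowest for both genes. The log2 fold changes were 0.35 (SE 0.60) for Zic1 and 0.46 (SE 0.76) for Zic4, at edgeR adjusted p of 0.978 and 0.975. With the block they were 0.23 (SE 0.26) and 0.35 (SE 0.29), at edgeR adjusted p of 0.761 and 0.667. Within numbers 1, 2 and 3 the log2 ratio of null over wild type was 0.27, -0.36 and 0.62 for Zic1 and 0.06, -0.20 and 0.87 for Zic4, so both differed in sign between number 2 and the others. Zic1 passed only in the blocked fit that left out number 2 (log2 fold change 0.47, adjusted p = 0.021 by edgeR). Zic1 over Zic4, as a ratio of FPKM values, was 5.65 to 8.33 in null and 6.48 to 9.36 in wild type libraries, and the ranges overlapped.

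Etv1 lies on chromosome 12 (38779380 to 38868215, plus strand) and Tle4 on chromosome 19 (14448072 to 14598051, minus strand). Neither passed in any fit run. Etv1 was at 55.8, 31.6 and 74.3 CPM in null replicates 1, 2 and 3, against 66.0, 45.4 and 65.6 CPM in wild type replicates 1, 2 and 3. Its groups overlapped, with null replicate 3 the highest and null replicate 2 the lowest library. The log2 fold change was -0.11 (SE 0.32, adjusted p = 0.993 by edgeR), and -0.15 (SE 0.11, adjusted p = 0.507 by edgeR) with the block. Tle4 was at 78.7, 35.8 and 104 CPM in null replicates 1, 2 and 3, against 73.3, 39.6 and 91.9 CPM in wild type replicates 1, 2 and 3. Its order of libraries was the same in both genotypes, with number 3 highest and number 2 lowest. The log2 fold change was 0.11 (SE 0.48, adjusted p = 0.997 by edgeR), and 0.08 (SE 0.08, adjusted p = 0.642 by edgeR) with the block.

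**Figure D4:**
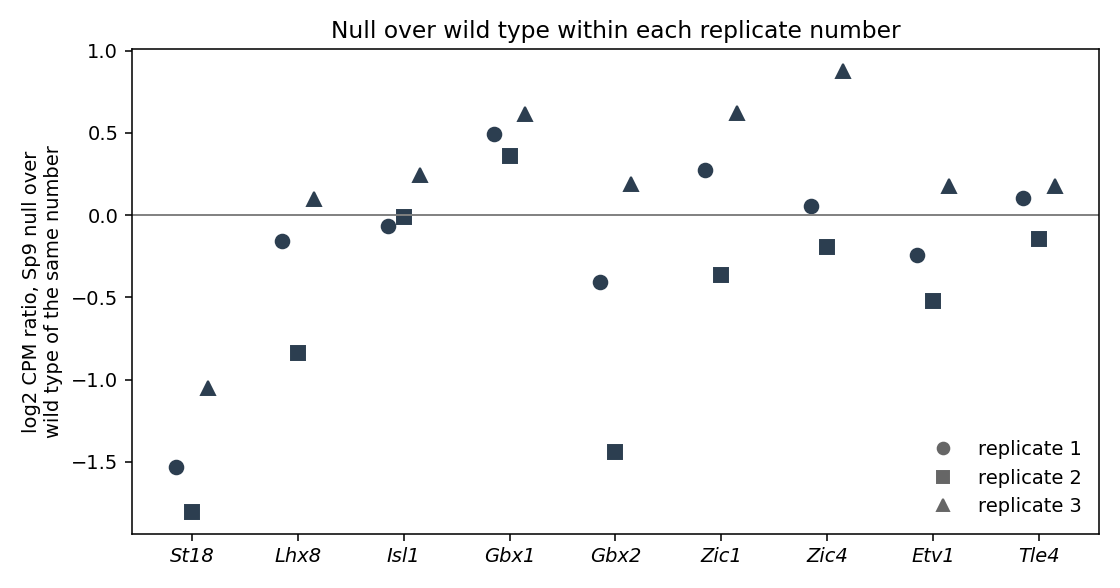
Log2 ratio of CPM in the Sp9 null library over the wild type library of the same replicate number, for each gene and number. St18 lies below 0 in all 3 numbers (-1.05 to -1.80) and Gbx1 above 0 in all 3 (0.36 to 0.61), while the other 7 genes have ratios on both sides of 0.

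Promoter sequence is shown for 4 of the 8 genes that varied together, both LIM homeodomain genes and the 2 genes with the most GC boxes, as the stretch before the start site that is clear of annotated exons. RefSeq promoters on GRCm38.p6 were found for 7 of the 9 genes, and not for St18 and Gbx1. Each window of 250 bases upstream of the start was searched on both strands for GGGCGG, the GC box that Sp family factors are known to bind. It was present for 3 of the 7 genes (Gbx2, Tle4 and Zic1), which have 9 windows together. Of all 32851 promoter windows of that length, from 27025 genes, 32.7% held it. The first is a share of genes and the second a share of windows, and a gene with more windows has more chances of a match. Taken by window, GGGCGG was present in the Gbx2 window, the Zic1 window and both Tle4 windows, and absent from the rest of the 9. The stretches below are from chr3:154330660-154330810 (minus strand), chr13:116309690-116309938 (minus strand), chr9:91365811-91366018 (minus strand) and chr19:14598184-14598433 (minus strand), written 5′ to 3′ along the gene, with GC boxes of either strand in capitals. A match describes these letters and is not a binding site.
Lhx8 promoter: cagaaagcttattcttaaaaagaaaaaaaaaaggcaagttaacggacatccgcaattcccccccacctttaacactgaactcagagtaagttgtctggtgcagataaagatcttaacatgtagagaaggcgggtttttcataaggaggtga
Isl1 promoter: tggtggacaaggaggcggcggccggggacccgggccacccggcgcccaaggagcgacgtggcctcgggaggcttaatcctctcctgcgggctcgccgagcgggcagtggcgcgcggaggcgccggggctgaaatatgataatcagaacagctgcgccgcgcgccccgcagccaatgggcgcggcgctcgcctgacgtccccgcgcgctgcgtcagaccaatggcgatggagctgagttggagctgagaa
Zic1 promoter: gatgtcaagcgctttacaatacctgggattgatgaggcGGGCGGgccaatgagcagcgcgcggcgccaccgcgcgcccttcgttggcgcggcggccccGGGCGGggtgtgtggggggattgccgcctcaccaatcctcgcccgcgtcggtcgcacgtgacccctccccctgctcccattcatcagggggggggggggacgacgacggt
Tle4 promoter: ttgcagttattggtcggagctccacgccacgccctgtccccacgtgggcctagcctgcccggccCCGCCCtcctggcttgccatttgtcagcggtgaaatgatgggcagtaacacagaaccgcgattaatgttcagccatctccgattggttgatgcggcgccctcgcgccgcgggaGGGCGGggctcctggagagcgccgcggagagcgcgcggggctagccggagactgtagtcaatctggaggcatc
Of these 4 stretches, those of Zic1 and Tle4 hold 2 GC boxes each, and those of Lhx8 and Isl1 hold 0.

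Per unit of gene length the wild type order was Lhx8, Zic1, Gbx1, St18, Tle4, Isl1, Gbx2, Etv1 and Zic4, by mean FPKM. Lhx8 was at 41.0 ± 19.6 FPKM in null and 46.6 ± 10.6 FPKM in wild type libraries, and Zic4 at 3.41 ± 2.51 and 2.52 ± 1.29 FPKM in null and wild type (SD, n = 3 each). St18 was at 3.69 ± 0.74 FPKM in null and 10.1 ± 0.914 FPKM in wild type libraries, so it ranked 7th in the null and 4th in the wild type libraries. Neighbours in the wild type order overlapped in their FPKM ranges, except Lhx8 and Zic1, where the lowest Lhx8 library had 34.4 FPKM and the highest Zic1 library 21.8 FPKM. In the null libraries all neighbours overlapped. Within every null library Lhx8 was above Zic1, Zic1 above Gbx1, Gbx1 above Tle4 and Isl1 above Gbx2. Within every wild type library Lhx8 was above Zic1, Zic1 above Gbx1, Tle4 above Isl1, Isl1 above Gbx2 and Etv1 above Zic4. The other neighbours changed order between libraries of the same genotype.

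The genes whose pattern over the 6 libraries was most like that of St18, out of 11863 genes with a mean of at least 5 CPM, were Fam222a (Pearson's r = 0.998), Trappc1 (0.986), Hhip (0.986), Chchd4 (0.985) and Trak1 (0.983). Hhip encodes a membrane protein that binds and restrains hedgehog ligands, and Trak1 an adaptor that couples mitochondria to kinesin motors. Fam222a was at 36.9, 31.9 and 40.6 CPM in null replicates 1, 2 and 3, against 60.3, 57.3 and 55.0 CPM in wild type replicates 1, 2 and 3. It fell with the block (log2 fold change -0.64, SE 0.09, adjusted p = 8.03e-06 by edgeR) and did not pass without it (adjusted p = 0.119 by edgeR). Hhip was at 6.45, 5.01 and 7.32 CPM in null and 11.7, 10.8 and 9.68 CPM in wild type replicates 1, 2 and 3. It also fell with the block (log2 fold change -0.76, SE 0.19, adjusted p = 0.0114 by edgeR) and did not pass without it (adjusted p = 0.459 by edgeR). Trappc1, Chchd4 and Trak1 passed in neither fit (adjusted p with the block 0.474, 0.0652 and 0.203 by edgeR). The points share their libraries and the difference between the genotypes, so the likeness is a description. These 5 genes were picked for their likeness to a gene that differed by genotype in the same libraries. A fall in the null was therefore favoured by the choice, and their adjusted p-values are no separate support.

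Among paralogues and cofactors of the 9 genes, 4 of 20 tested passed by edgeR when libraries of the same number were compared. Of 21 listed genes 20 were tested, and 0 passed with genotype as the only term in edgeR, while DESeq2 called 1, Lmo4. In that edgeR fit 2 had an unadjusted p under 0.05, beside 882 of all 14929 tested genes. With the block 3 were higher and 1 lower, beside 2.22% higher and 1.78% lower of all tested genes. By edgeR with the block 6 of the 20 had an unadjusted p under 0.05, beside 2573 of all 14929 tested genes. The median log2 fold change of the list in that fit was 0.15, against -0.0067 over all genes tested. Lmo4, a LIM-only protein that competes for Ldb1, was at 93.3, 104 and 99.8 CPM in null replicates 1, 2 and 3, against 77.9, 70.2 and 70.0 CPM in wild type replicates 1, 2 and 3. Each null value exceeded each wild type value, and with the block it rose by 0.47 on the log2 scale (SE 0.07, adjusted p = 5.11e-05 by edgeR), a call lost without both libraries of number 2 (adjusted p = 0.0645 by edgeR). Aes, a short Groucho-related protein, was at 189, 163 and 163 CPM in null and 222, 216 and 222 CPM in wild type replicates 1, 2 and 3. It fell with the block by 0.34 on the log2 scale (SE 0.06, adjusted p = 0.000236 by edgeR), and lost that call without number 2 or number 3. Lhx1, a LIM homeodomain gene, was at 11.1, 3.73 and 15.2 CPM in null replicates 1, 2 and 3, against 6.08, 2.29 and 7.26 CPM in wild type replicates 1, 2 and 3. It rose with the block by 0.93 on the log2 scale (SE 0.20, adjusted p = 0.00282 by edgeR). It was lowest in replicate 2 of each genotype, like the 8 members. Its call was lost without number 3 and was not made by DESeq2 with the block. Myt1, the St18 paralogue, was at 191 ± 6.32 CPM in null and 188 ± 6.18 CPM in wild type libraries and did not pass in either fit (blocked log2 fold change 0.05, SE 0.06). Myt1l had a blocked log2 fold change of -0.0015 (SE 0.13) and Lhx2 one of 0.14 (SE 0.06). Isl2 had at most 4 counts in a library and was not tested.

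Of 8 other genes of globus pallidus neurons 6 were tested. By edgeR 0 passed with genotype as the only term, while DESeq2 called 1. In that edgeR fit 1 had an unadjusted p under 0.05, beside 882 of all 14929 tested genes. With the block 0 were higher and 1 was lower by edgeR, beside 1.78% of all tested genes lower. In the blocked fit 5 of the 6 had an unadjusted p under 0.05, beside 2573 of all 14929 tested genes. The gene called by DESeq2 and by edgeR with the block was Lhx6. It was at 375 ± 35.6 CPM in null and 521 ± 51.9 CPM in wild type libraries (SD, n = 3 each). It fell with the block by a log2 change of -0.45 (SE 0.06, adjusted p = 6.01e-06 by edgeR). Nkx2-1, at 926 ± 27.4 CPM in null and 848 ± 68.9 CPM in wild type libraries, was at a log2 fold change of 0.15 with the block (SE 0.06, adjusted p = 0.172 by edgeR). Sox6, a factor downstream of Lhx6, had 0.17 (SE 0.06, adjusted p = 0.0809 by edgeR), Foxp2 0.32 (SE 0.11, adjusted p = 0.111 by edgeR) and Npas1, a factor of the pallidal neuron class that Foxp2 marks, 0.06 (SE 0.24, adjusted p = 0.932 by edgeR). The list's median with the block was 0.11.

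Genes of the cholinergic phenotype had low counts, at most 55 in a library, and Chat and Slc18a3 were near the limit of detection. Of 6 listed genes 4 were tested, and 0 passed by edgeR with genotype as the only term (0 at an unadjusted p under 0.05, and 0 by DESeq2) or with the block (1 at an unadjusted p under 0.05, and 0 by DESeq2 with the block). Over all 14929 tested genes the edgeR count at an unadjusted p under 0.05 was 882 with genotype only and 2573 with the block. The median log2 fold change of the 4 tested cholinergic genes was -0.53, and -0.54 with the block. Chat, which makes acetylcholine, had 0, 0 and 1 counts in null replicates 1, 2 and 3, against 7, 1 and 12 counts in wild type replicates 1, 2 and 3. Summed and scaled to depth, null over wild type was 0.056 (95% exact counting interval 0.001 to 0.349). Slc18a3, the vesicular acetylcholine transporter, which lies within the Chat gene so that counts may be exchanged between the 2 genes, had 0, 0 and 1 counts in null and 12, 2 and 12 counts in wild type replicates 1, 2 and 3, a ratio of 0.043 (95% exact counting interval 0.001 to 0.261). The intervals cover counting error only, wild type replicate 2 was nearly as low as the null libraries, and neither gene passed in the edgeR fit with no filter (adjusted p = 0.669 and 0.352). Slc5a7, the choline transporter, had 48 counts over the null and 68 over the wild type libraries, and Ache, the enzyme that degrades acetylcholine, 106 and 126 counts over null and wild type.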

How the data were processed

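RNA-seq libraries of 3 Sp9 null and 3 wild type MGE samples were grouped by their titles. Per the file headers, the authors deposited 1 table with a whole-number read count and an FPKM value per gene and library. TopHat, Cufflinks 2.1.1 and the build GRCm38.p4 are listed in the submitters' processing notes, with no role given. No source used here names the program that counted reads. For 21180 of 21180 genes counted in 2 or more libraries the deposited FPKM equalled the count over 1 length per gene and the library total, within a relative tolerance of 0.001. The number of unused sample columns was 0.

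Counts were tested with edgeR 4.0.16 in R 4.3.3 (quasi-likelihood, TMM scaling, default filter, robust, two-sided), with Benjamini-Hochberg adjustment over all 14929 genes tested. Each SE is the absolute log2 fold change divided by the root of its F statistic. CPM used the library total as deposited; 3 counts correspond to 0.273 to 0.44 CPM, for counting error only. Same-numbered libraries deviated together from their genotype means (correlations 0.336, 0.729 and 0.535 for numbers 1, 2 and 3), above 0.1 in each. They were treated as pairs in the fits with the block, and not in the fit with genotype only. What a number marks is not stated by the labels, and null 3 correlated by 0.354 with wild type 1. Alternatives were DESeq2 1.42.0, limma 3.58.1 on deposited FPKM, other scaling and filtering, and left-out libraries; leaving out replicate 2 of both genotypes was chosen after seeing the data. The named genes are the 9 members, the called and first 4 other genes of each related list, Cbx7 as the remaining tested gene of its list, and the 5 genes most correlated with St18. Members and lists were chosen with earlier results of these data known. Gene lists were described by counts and medians, and 1 gene counted in them is not reported here. Coordinates are those of the deposited table; strands come from GENCODE M21.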

Additional observations from a re-analysis of the deposited data

How the results depend on the processing

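St18 kept its negative sign in all 17 alternatives (log2 fold change -1.66 to -1.25) and its edgeR, limma or DESeq2 call in 12 of them. Gbx1 kept its positive sign in all 17 (0.15 to 0.98) and was called in 5, which are fits with the block or without replicate 2 of both genotypes. The count of genes called over the whole table, 22 in the fit with genotype only, was 597 with the replicate block, 65 with no filter, 84 by DESeq2, 163 by DESeq2 with the block, 36 and 38 by limma on FPKM with a pseudocount of 1 and 0.1, and 89 without replicate 2 of both genotypes. It was 2 to 34 with 1 library left out, and 1193, 126 and 219 in the blocked fit without number 1, 2 and 3. Of the 9 members, 1 was called, against 2 with the block, by DESeq2 with the block and without replicate 2 of both genotypes, 0 to 1 with 1 library left out, and 1 to 3 in the blocked fit with 1 number left out. Of the related genes 0 were called by edgeR with genotype only, against 5 with the block, 2 by DESeq2, 3 by DESeq2 with the block, 1 without replicate 2 of both genotypes, 0 with 1 library left out, and 3 to 5 in the blocked fit with 1 number left out.

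With 1 library left out, the log2 fold change ran from -0.50 to 0.17 for Lhx8, -0.14 to 0.31 for Isl1, -0.98 to 0.43 for Gbx2, -0.0836 to 0.77 for Zic1, -0.23 to 0.92 for Zic4, -0.43 to 0.16 for Etv1 and -0.25 to 0.44 for Tle4, so these 7 genes had no stable sign in these fits, which have no block. The blocked fits with 1 number left out kept the sign of Lhx8 (-0.47 to -0.0114), Gbx2 (-0.71 to -0.0511), Etv1 (-0.36 to -0.0026) and Tle4 (0.0013 to 0.16). In the blocked fit without number 3 the log2 fold change was -0.0266 for Isl1, -0.0069 for Zic1 and -0.0347 for Zic4. Without replicate 2 of both genotypes it was 0.0107 for Etv1. The cause of these changes was not tested. Precision is limited by 3 libraries per genotype and, for Gbx2 in replicate 2 and the cholinergic genes, by low counts.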
